A study of Mus musculus with 27 samples.

Results

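The let-7 passenger strands are the 3p arms of the let-7 microRNA hairpins, the strands that are usually discarded when the 5p arm is kept. They were chosen by name: mmu-let-7a-2-3p, mmu-let-7b-3p, mmu-let-7c-1-3p, mmu-let-7d-3p, mmu-let-7e-3p, mmu-let-7f-1-3p and mmu-let-7f-2-3p (the species prefix is dropped below), which are 7 of the 1842 mature microRNA entries counted. The 5p arms of the same hairpins were used as denominators of arm ratios. All 7 entries passed the filter on low counts, as did 1470 of the 1842 entries.

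Small RNA was sequenced from the cortex of wild-type C57BL6 mice, an inbred laboratory strain, aged 7 to 8 weeks. In 8 of the 9 groups a suture had blocked the middle cerebral artery for 35 min (MCAO, the occlusion model of ischemic stroke). These groups are ipsilateral cortex (the occluded side) and contralateral cortex (the opposite side of operated animals), each after 3, 6, 12 and 24 h of recovery. The remaining group is sham cortex, from mice that were anesthetized and had their arteries exposed without a suture. Each group holds 3 libraries, numbered 1 to 3, and each number stands for a separate day of surgery. Contralateral cortex has been through the same operation as ipsilateral cortex, so it is no untreated control. Whether the sides of 1 number are from 1 animal is not stated in the labels.

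A microRNA is cut from a hairpin as a short duplex of a 5p and a 3p strand. The strand that is loaded into an Argonaute protein is the guide and represses messenger RNAs that pair with its seed, bases 2 to 8, while the passenger strand is mostly degraded. In the let-7 family the guide is the 5p strand, which accumulates in differentiated cells and is abundant in adult brain. The ratio of the arms is read as the balance between strand loading, strand decay and cutting. Where 1 hairpin makes both arms, the ratio at steady state does not move when the whole hairpin is made more or less. That does not hold for the ratios of let-7a-2, let-7c-1, let-7f-1 and let-7f-2, since let-7a-5p, let-7c-5p and let-7f-5p are each made from a pair of hairpins.

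The mature sequences are shown because the members are told apart by few bases and because their seeds, in capitals, differ from those of the guides. All 7 were matched by name in the RefSeq table for GRCm38.p6 and are given 5′ to 3′.
let-7a-2-3p: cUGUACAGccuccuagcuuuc
let-7c-1-3p: cUGUACAAccuucuagcuuucc
let-7e-3p: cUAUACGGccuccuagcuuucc
let-7d-3p: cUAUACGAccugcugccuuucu
let-7f-1-3p: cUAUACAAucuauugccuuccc
let-7b-3p: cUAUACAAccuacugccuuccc
let-7f-2-3p: cUAUACAGucuacugucuuuc
For contrast, a guide with its seed in capitals:
let-7f-5p: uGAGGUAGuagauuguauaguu

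The 6 guides used here share a single seed, whereas the 7 passenger strands carry 6 different seeds. let-7b-3p and let-7f-1-3p have the same seed, which miR-98-3p also carries. All 7 begin with C, against 21.3% of the 1587 table entries that have a RefSeq mature sequence. Over the 21 pairs of members, the strands differed at between 2 and 8 bases. The closest pairs, at 2 bases, were let-7a-2-3p with let-7c-1-3p (G8A and C12U), let-7a-2-3p with let-7e-3p (G3A and A7G), and let-7b-3p with let-7f-1-3p (C9U and C13U), with positions counted from the 5′ end. RefSeq also lists let-7a-1-3p and let-7c-2-3p, which are identical to each other. Over its 21 bases let-7f-2-3p differs from them by G8A alone. Neither is among the 1842 entries counted, and the labels do not say how reads matching several sequences were counted. The value of let-7f-2-3p is therefore uncertain by any reads of these strands that were counted with it.

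The 7 hairpins lie in host genes on the same strand, some of which hold other microRNAs too. All coordinates are of the mature strand in GRCm38.p6. let-7d-3p (chr13:48536024-48536045, minus strand) and let-7f-1-3p (chr13:48537833-48537854, minus strand) lie in an exon of the noncoding gene 6720427I07Rik. let-7b-3p (chr15:85707379-85707400, plus strand) lies in an exon of the noncoding gene Lncppara. The other hairpins are intronic. let-7a-2-3p (chr9:41536777-41536797, plus strand) lies in 3110039I08Rik and in the noncoding gene Gm49317, in a cluster with miR-100 and miR-125b-1. let-7c-1-3p (chr16:77599717-77599738, plus strand) lies in Mir99ahg, with miR-99a and miR-125b-2. let-7e-3p (chr17:17830411-17830432, plus strand) lies in Spaca6, with miR-99b and miR-125a. let-7f-2-3p (chrX:151912403-151912423, plus strand) lies in Huwe1, a ubiquitin ligase gene, with miR-98.

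Libraries held 856591 to 1903416 counts, of which the 7 passenger strands together took between 0.120% and 0.263%. Levels are in CPM, the count scaled to a fixed library total after TMM correction, which adjusts for differences in library composition. The neuron-enriched microRNAs miR-124-3p, miR-128-3p, miR-9-5p, miR-138-5p and miR-132-3p were detected in every group, with summed levels from 69522 to 204710 CPM over the 27 libraries. Sham replicate 2 and ipsilateral 6 h replicate 3 stood apart. In them the summed level of 9 microRNAs of choroid plexus and epithelium was 33098 and 28490 CPM, mostly miR-182-5p at 22388 and 20198 CPM, and the call below that uses sham replicate 2 is also given without it. Liver miR-122-5p stayed between 1.68 and 9.07 CPM.

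The passenger strands spanned a wide range of levels, with let-7d-3p far above the others. Over the 27 libraries let-7d-3p averaged 1208 ± 240 CPM (SD), 68th by mean level of all entries. It was followed by let-7f-2-3p with 252 ± 122 CPM, let-7b-3p with 147 ± 41.2 CPM and let-7e-3p with 72.3 ± 19.4 CPM. At the low end were let-7f-1-3p with 24.9 ± 6.40 CPM, let-7c-1-3p with 12.4 ± 4.35 CPM and let-7a-2-3p with 7.66 ± 3.15 CPM. The ranges of let-7f-2-3p and let-7b-3p overlapped (117 to 556 CPM, against 67.6 to 241 CPM), as did those of each neighbouring pair below them in that order. The range of let-7d-3p, from 723 to 1752 CPM, overlapped with no other. At these levels the rarest strands rest on few reads: let-7a-2-3p had 3 to 29 counts and was under 10 counts in 19 of 27 libraries, and let-7c-1-3p had 5 to 31 counts. Differences between microRNAs in how well the library chemistry captures them were not tested.

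Set against its own guide, each strand was the minor product, but to very different degrees. let-7d-3p made up 20.0% ± 3.13 of the reads of both arms (SD, 27 libraries), with a range from 13.7% to 28.2%. let-7b-3p made up 4.14% ± 0.970 and let-7e-3p 1.08% ± 0.259. let-7f-2-3p made up 0.420% ± 0.261, let-7c-1-3p 0.0700% ± 0.0252, let-7a-2-3p 0.0581% ± 0.0350 and let-7f-1-3p 0.0417% ± 0.0121. Because of the paired hairpins, the shares of let-7a-2-3p, let-7c-1-3p and both let-7f strands understate those of their own hairpin, as far as the 3p counts hold no reads of other strands. The guides themselves averaged from 3414 CPM for let-7b-5p to 62771 CPM for let-7f-5p. The order of the passenger strands counted was not that of the guides. let-7d-5p averaged 4948 CPM, below let-7a-5p at 14325 CPM and let-7c-5p at 18005 CPM, while let-7a-2-3p and let-7c-1-3p were the rarest strands counted. The passenger output of let-7a and let-7c is incomplete here, since let-7a-1-3p and let-7c-2-3p were not among the entries counted. let-7e-5p averaged 6760 CPM, above let-7d-5p and let-7b-5p, whereas let-7e-3p averaged below let-7d-3p and let-7b-3p. Among the other let-7 hairpins, let-7g-3p averaged 19.5 CPM and let-7i-3p 26.5 CPM, and miR-98-3p averaged 32.2 CPM.

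**Figure D1:**
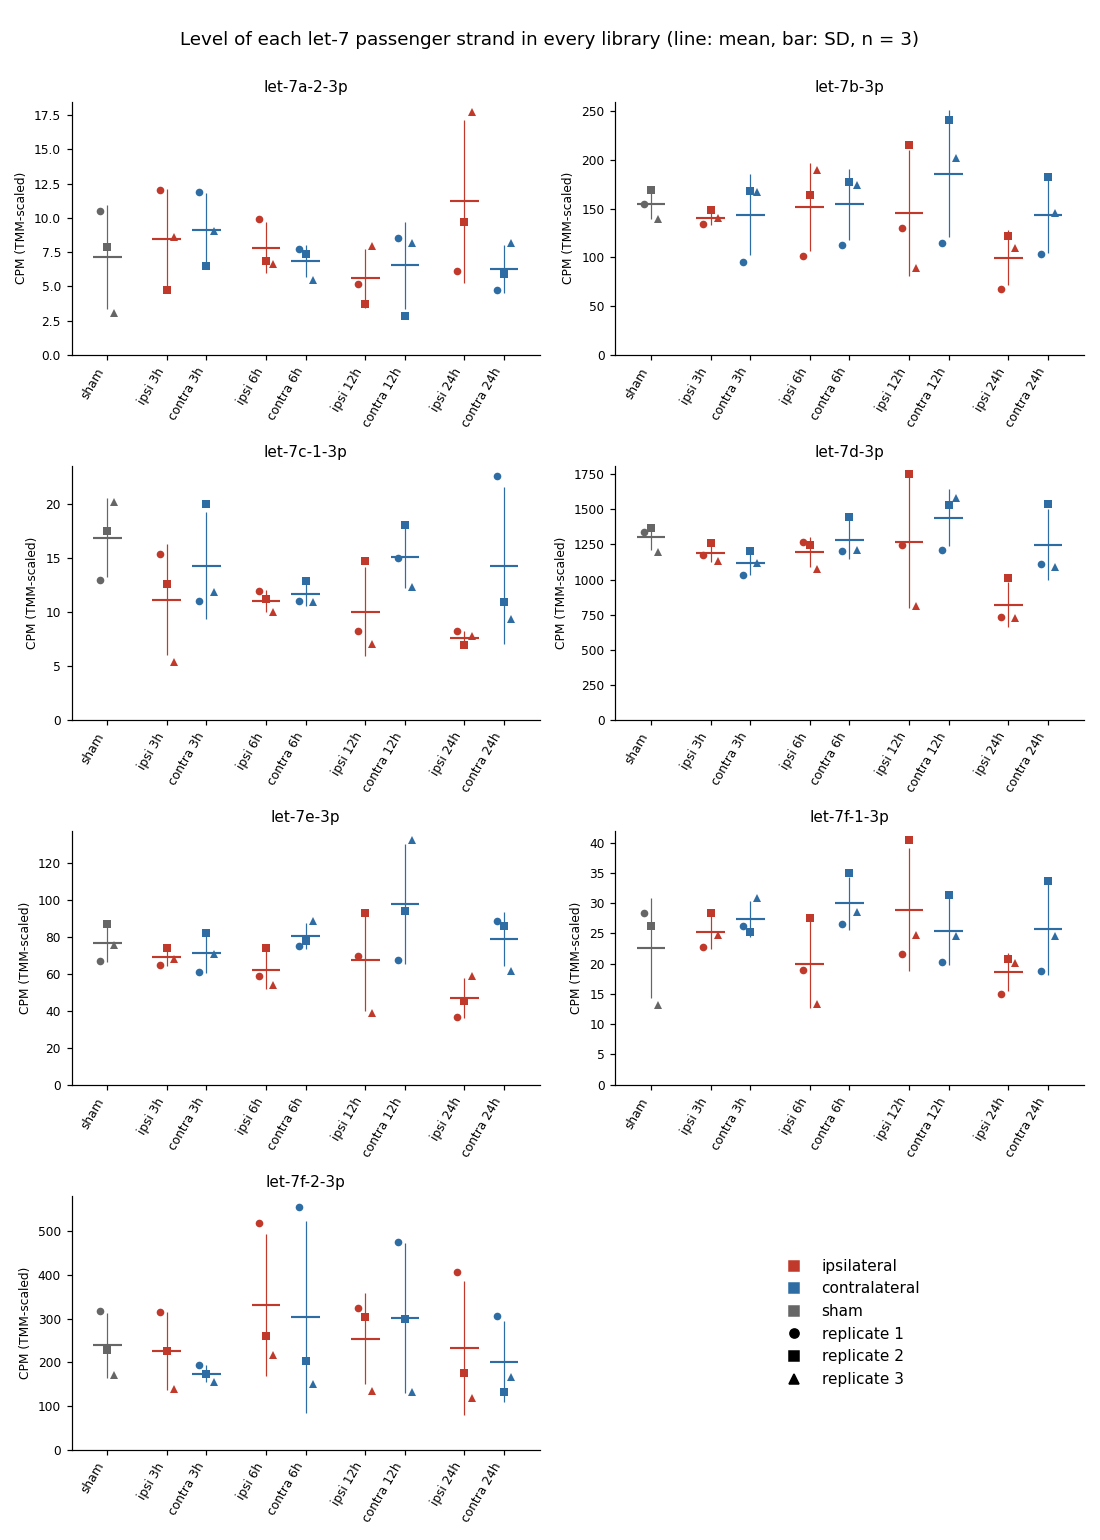
Level of each let-7 passenger strand in every library, in TMM-scaled CPM on a linear axis from 0, by group. Symbols are replicates 1 to 3, horizontal lines are means and vertical bars are SDs (n = 3). let-7c-1-3p, let-7d-3p and let-7e-3p are low in all 3 ipsilateral libraries at 24 h, and let-7f-2-3p is highest in replicate 1 of every group.

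The comparison of the hemispheres asks whether the strands changed on the occluded side. Up to 12 h the passenger strands showed no difference that passed the test, and at 24 h most were lower on the occluded side without passing it. edgeR's quasi-likelihood test called 0 of 7 members at 3 h and at 6 h, where it called 0% of all 1470 entries, and 0 of 7 at 12 h, where it called 4.35%. At 3, 6 and 12 h 0 of the 7 had an unadjusted p under 0.05, beside 3.95%, 4.35% and 11.2% of all entries, and DESeq2 called 0. The largest difference at 3 h was that of let-7f-2-3p, with 226 ± 88.7 CPM on the ipsilateral side and 174 ± 19.2 CPM on the contralateral side (SD, n = 3), or 0.38 ± 0.53 on the log2 scale (SE). At 6 h it was that of let-7f-1-3p, with 19.9 ± 7.18 CPM in ipsilateral against 30.0 ± 4.40 CPM in contralateral cortex (-0.59 ± 0.34). At 12 h let-7c-1-3p had 10.0 ± 4.12 CPM in ipsilateral against 15.1 ± 2.88 CPM in contralateral cortex (-0.64 ± 0.39).

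At 24 h edgeR called 0 of the 7 members, while it called 11.8% of all entries higher and 1.43% lower. 3 of the 7 had an unadjusted p under 0.05, as did 23.8% of all entries. The median log2 fold change of the 7 was -0.53 and 5 were below 0, beside a median of 0.08 over all entries tested.

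let-7d-3p, the most abundant of them, had 731, 1010 and 723 CPM in the ipsilateral libraries at 24 h, against 1114, 1539 and 1093 CPM in the contralateral ones. The groups did not overlap, with ipsilateral lower. The log2 fold change was -0.60 ± 0.24 (SE, edgeR adjusted p = 0.103). In the fit with the day of surgery as a block, the adjusted p of let-7d-3p was 0.0162, and 6.53% of all entries were then called lower. DESeq2 also called it lower, with an adjusted p of 0.0479.

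let-7e-3p had 36.9, 45.1 and 58.6 CPM in ipsilateral cortex at 24 h, against 88.5, 85.7 and 61.8 CPM in contralateral cortex. Its groups did not overlap either, and the log2 fold change was -0.75 ± 0.32 (edgeR adjusted p = 0.134). let-7c-1-3p had 8.19, 6.94 and 7.72 CPM against 22.6, 10.9 and 9.33 CPM, also without overlap, and its log2 fold change was -0.91 ± 0.38 (edgeR adjusted p = 0.124). The contralateral mean rests largely on replicate 1, and without that library the value was -0.42. Members with no overlap and a lower ipsilateral group were thus 3 of 7, beside 12.0% of all entries.

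let-7b-3p had 67.6, 121 and 110 CPM in ipsilateral cortex at 24 h, against 104, 182 and 146 CPM in contralateral cortex. The groups overlapped, and its log2 fold change of -0.53 ± 0.36 did not pass the test (edgeR adjusted p = 0.386). let-7f-1-3p had 15.0, 20.8 and 20.1 CPM against 18.8, 33.6 and 24.5 CPM, with -0.46 ± 0.34 (edgeR adjusted p = 0.422). let-7a-2-3p and let-7f-2-3p lay on the other side of 0. let-7a-2-3p had 9, 14 and 23 counts in ipsilateral libraries, or 6.14, 9.71 and 17.7 CPM, against 5, 7 and 7 counts, or 4.71, 5.88 and 8.16 CPM, in contralateral libraries. Its log2 fold change was 0.84 ± 0.46 (edgeR adjusted p = 0.284). let-7f-2-3p had 406, 176 and 117 CPM in ipsilateral cortex against 307, 132 and 166 CPM in contralateral cortex, or 0.21 ± 0.53 on the log2 scale (edgeR adjusted p = 0.869). Each side was led by replicate 1, and the spread between replicates was larger than the difference between sides.

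The lower values depended on the scaling. With library totals alone, the log2 fold changes at 24 h were -0.11 for let-7d-3p, -0.26 for let-7e-3p and -0.42 for let-7c-1-3p, and that of let-7f-1-3p turned to 0.028. The median of all entries tested was 0.57 with library totals, against 0.08 with TMM. Relative to that median the same strands (let-7c-1-3p, let-7d-3p, let-7e-3p and let-7f-1-3p) lay below it under both scalings. The summed level of the 5 neuron-enriched microRNAs was 72608 to 105866 CPM in ipsilateral cortex at 24 h against 113041 to 167131 CPM in contralateral cortex, and that of the 2 oligodendrocyte microRNAs was 977 to 1788 CPM against 1787 to 2512 CPM. In TMM-scaled CPM, lower levels were not limited to neural markers. The 3 vascular microRNAs summed to 9439 to 16779 CPM in ipsilateral against 15323 to 39470 CPM in contralateral cortex, and all 3 had log2 fold changes below 0 (median -0.61, beside -0.42 for the neuron-enriched and -0.60 for the oligodendrocyte ones). The 3 muscle microRNAs summed to 82.6 to 121 CPM against 181 to 199 CPM, the 3 erythrocyte ones to 139 to 195 CPM against 186 to 229 CPM, and the 5 leukocyte and microglia ones to 816 to 1088 CPM against 1081 to 1768 CPM. The 9 choroid plexus and epithelial ones, mostly miR-204-5p, summed to 2807 to 3768 CPM against 3280 to 5761 CPM. The 7 of them other than miR-204-5p and miR-211-5p were higher, with 958, 568 and 574 CPM against 440, 494 and 454 CPM. Of the 8 tested entries of that list 4 were below 0, with a median of -0.11 and values up to 1.26. Of the 4 tested leukocyte and microglia ones 3 were below 0, with values up to 0.62. All these values are with TMM. With library totals the median log2 fold changes were 0.060 (neuron-enriched, 2 of 5 below 0), -0.13 (oligodendrocyte), -0.14 (vascular) and 0.14 (erythrocyte). They were 0.18 (leukocyte and microglia) and 0.38 (choroid plexus and epithelial), and the 1 muscle microRNA tested had -0.36. Each lay below the 0.57 of all entries tested. Of the 26 tested entries of these 7 lists edgeR and DESeq2 called 0, edgeR with the day of surgery as a block called 6, and 5 had an unadjusted p under 0.05. Their part in the lower passenger strands was not tested, and in whole tissue fewer cells of a type and less RNA per cell cannot be told apart.

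The same comparison is given for related entries, without a test between lists. Of 9 guides of the family (let-7a, b, c, d, e, f, g and i and miR-98), 6 were called lower at 24 h by edgeR, with a median log2 fold change of -0.74 and a range from -0.99 for let-7f-5p to -0.49 for miR-98-5p. Of the other 3p arms of the family, let-7g-3p (-0.22), let-7i-3p (-0.53) and miR-98-3p (-0.71), 0 were called and 1 had an unadjusted p under 0.05. Of 13 arms from hairpins in the same clusters, 0 were called, 2 had an unadjusted p under 0.05 and all 13 were below 0, with a median of -0.49. Of 32 tested passenger arms of other hairpins that are abundant in brain, edgeR called 0 and 10 had an unadjusted p under 0.05. Of these, 28 were below 0, with a median of -0.52 and a range from -0.92 for miR-24-2-5p to 0.72 for miR-21a-3p. These values are with TMM. With library totals 9 of the 9 guides, 2 of the 3 other 3p arms, 7 of the 13 cluster arms and 17 of the 32 other passenger arms were below 0. Their medians were -0.25, -0.031, -0.010 and -0.059 in that order, beside -0.056 for the 7 members and 0.57 for all entries tested.

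**Figure D2:**
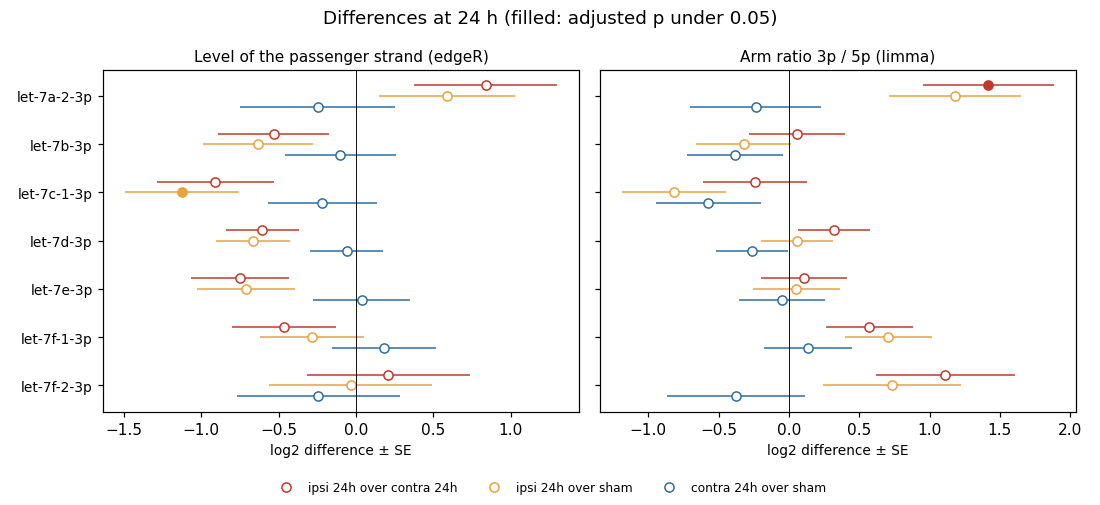
Log2 differences at 24 h of each passenger strand in level (left, edgeR) and in arm ratio (right, limma), for ipsilateral over contralateral, ipsilateral over sham and contralateral over sham. Points are estimates and bars are SEs, and filled points have an adjusted p under 0.05. 2 points are filled: let-7c-1-3p in level for ipsilateral over sham (-1.13), and let-7a-2-3p in arm ratio for ipsilateral over contralateral (1.42).

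Against sham cortex, let-7c-1-3p was the single passenger strand that passed the test. It had 8.19, 6.94 and 7.72 CPM in ipsilateral cortex at 24 h, against 13.0, 17.5 and 20.2 CPM in sham cortex, from 32 and 56 summed counts (95% Poisson intervals 21.9 to 45.2 and 42.3 to 72.7, for counting error only). All ipsilateral libraries lay below all sham libraries, as they did for 11.6% of all entries. The log2 fold change was -1.13 ± 0.37 (SE, edgeR adjusted p = 0.0416), where 11.3% of all entries were called higher and 1.36% lower. 3 of the 7 members had an unadjusted p under 0.05, beside 24.1% of all entries. At earlier times its mean was already below that of sham cortex without passing the test, with -0.53 ± 0.35 at 3 h, -0.60 ± 0.36 at 6 h and -0.78 ± 0.38 at 12 h. The 12 h value had an unadjusted p of 0.0497.

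That call depended on single libraries and on the scaling. It was lost without sham replicate 2, the library with high epithelial microRNAs (edgeR adjusted p = 0.125), and without sham replicate 3 (0.155). It was also lost without ipsilateral 24 h replicate 1 (0.121), replicate 2 (0.117) or replicate 3 (0.0813). From library totals the log2 fold change was -0.75 (edgeR adjusted p = 0.283).

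The other members were not called in ipsilateral cortex at 24 h against sham. let-7d-3p had 731, 1010 and 723 CPM in ipsilateral against 1339, 1365 and 1200 CPM in sham cortex, groups that did not overlap. Its log2 fold change was -0.66 ± 0.24 (edgeR adjusted p = 0.0705), and with the day of surgery as a block the adjusted p was 0.00819, where 4.69% of all entries were called lower. let-7e-3p had 46.9 ± 11.0 CPM against 76.7 ± 10.1 CPM (-0.71 ± 0.32), and let-7b-3p had 99.5 ± 28.3 CPM against 154 ± 15.0 CPM (-0.63 ± 0.36). The ipsilateral group thus lay below sham without overlap for let-7b-3p, let-7c-1-3p, let-7d-3p and let-7e-3p, as for 11.6% of all entries. let-7f-1-3p (-0.28 ± 0.34), let-7f-2-3p (-0.034 ± 0.53) and let-7a-2-3p (0.59 ± 0.44) had smaller differences. The edgeR adjusted p of let-7a-2-3p, let-7b-3p, let-7e-3p, let-7f-1-3p and let-7f-2-3p ran from 0.167 to 0.976. The sham libraries enter this comparison and those below, so the values against sham at different times are not independent of each other.

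At 3, 6 and 12 h edgeR called 0 of 7 members in ipsilateral cortex against sham, beside 0%, 0% and 5.44% of all entries, and 1 of the 21 values, that of let-7c-1-3p at 12 h, had an unadjusted p under 0.05, beside 5.85%, 3.67% and 14.4% of all entries. In contralateral cortex against sham it called 0 of 7 at every time, beside 0% of all entries, and DESeq2 called 0 in each of these comparisons. No member had an unadjusted p under 0.05 there, beside 1.77%, 2.31%, 4.35% and 2.24% of all entries at 3, 6, 12 and 24 h. The contralateral means of let-7d-3p were 1117 ± 84.3, 1286 ± 136, 1441 ± 202 and 1249 ± 252 CPM at 3, 6, 12 and 24 h, against 1301 ± 88.9 CPM in sham cortex. The corresponding ipsilateral means of let-7d-3p were 1191 ± 65.4, 1197 ± 108, 1268 ± 472 and 821 ± 163 CPM. Of these means the one at 24 h was the lowest, and at 12 h the libraries spread from 808 to 1752 CPM.

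Across all times at once, edgeR found a hemisphere difference for 0 of 7 members, beside 8.98% of all entries, and 0 had an unadjusted p under 0.05. The lowest adjusted p was that of let-7e-3p, 0.385. The test of whether the hemisphere difference changed over time also called 0 of 7, beside 0.612% of all entries. A time course of any passenger strand was therefore not resolved at this depth and with 3 libraries per group.

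The arm ratio asks whether the passenger strand moved apart from its guide, and does not depend on library scaling. It was tested with limma on log2 ratios over the 537 hairpins with both arms tested. At 24 h the log2 ratio of let-7a-2-3p to let-7a-5p was -10.23, -9.98 and -9.05 in ipsilateral libraries against -11.81, -11.11 and -10.59 in contralateral ones. The groups did not overlap, as was so with a higher ipsilateral ratio for 10.2% of hairpins. The difference was 1.42 ± 0.47 (SE, limma adjusted p = 0.0494), where 4.84% of hairpins were called higher and 6.15% lower. It was the only one of the 7 called at 24 h, and 2 of the 7 had an unadjusted p under 0.05, beside 19.0% of hairpins. It rests on 46 summed counts of let-7a-2-3p in ipsilateral and 19 in contralateral libraries (95% Poisson intervals 33.7 to 61.4 and 11.4 to 29.7). A change in the output of let-7a-2 relative to let-7a-1, the other hairpin of let-7a-5p, and a change in the balance of the arms cannot be told apart in this ratio. The guide was lower, with 9186 CPM in ipsilateral libraries against 15350 CPM in contralateral libraries, or -0.74 ± 0.21 on the log2 scale (edgeR adjusted p = 0.0152).

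Leaving out any 1 of 5 libraries ended the call of the let-7a-2 arm ratio: contralateral 24 h replicate 1 (limma adjusted p = 0.257) or 2 (0.119), or ipsilateral 24 h replicate 1 (0.0716), 2 (0.0834) or 3 (0.229). An edgeR test of the 3p count with the 5p count as offset gave 1.52 with an adjusted p of 0.0634. Against sham cortex the let-7a-2 ratio was higher by 1.18 ± 0.47 in ipsilateral cortex at 24 h, which did not pass (limma adjusted p = 0.121).

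The log2 ratio of let-7f-2-3p to let-7f-5p was -6.00, -7.98 and -8.09 in ipsilateral libraries at 24 h, against -8.06, -8.83 and -8.50 in contralateral ones. In percent of both arms let-7f-2-3p made up 1.54%, 0.395% and 0.365% against 0.372%, 0.218% and 0.275%, so replicate 1 of the ipsilateral group stood far above the other libraries of both groups. The difference was 1.11 ± 0.49 (limma adjusted p = 0.186). With the day of surgery as a block the adjusted p was 0.00923, and without ipsilateral replicate 1 the difference was 0.43. That fit called 6.15% of hairpins higher.

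The other hairpins showed smaller differences between sides at 24 h. They were 0.57 ± 0.31 for let-7f-1, 0.32 ± 0.26 for let-7d, 0.10 ± 0.31 for let-7e, 0.058 ± 0.34 for let-7b and -0.24 ± 0.37 for let-7c-1, with limma adjusted p from 0.338 to 0.976. For let-7d, let-7e and let-7b these differences were 0.32 or less, and both arms had lower means on the occluded side. The median difference of the 7 members was 0.32, beside 0.21 for let-7g, let-7i and miR-98, 0.05 for the 32 other passenger arms and -0.01 for all hairpins tested. Against sham cortex at 24 h these medians were 0.058, 0.32, 0.079 and -0.028 in the same order.

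At 3, 6 and 12 h limma called 0 of 7 arm ratios between sides, beside 0%, 0% and 1.68% of hairpins called higher and 0%, 0% and 2.05% lower. 1 of these 21 values had an unadjusted p under 0.05, that of let-7f-1 at 6 h (-0.66 ± 0.31), beside 2.42%, 3.72% and 14.2% of hairpins. Against sham cortex 0 of 7 were called in either hemisphere at any time, beside at most 4.10% of hairpins called higher and 6.15% lower, both in ipsilateral cortex at 24 h, where 3 of the 7 members (let-7a-2, let-7c-1 and let-7f-1) and 21.6% of hairpins had an unadjusted p under 0.05. At 12 h the shares were 1.12% higher, 2.23% lower and 11.0% unadjusted, with let-7c-1 the 1 member under 0.05 (-0.97 ± 0.37). At 3 and 6 h 0 of 7 members, beside 2.79% and 3.72% of hairpins, were under 0.05 unadjusted. In contralateral cortex against sham these unadjusted shares were 1.12%, 2.42%, 5.59% and 3.35% at 3, 6, 12 and 24 h, with 0 of the 7 members among them. In ipsilateral cortex at 24 h let-7c-1 had -0.81 ± 0.37 (limma adjusted p = 0.203), so the lower let-7c-1-3p against sham came with a lower ratio to let-7c-5p that did not pass. let-7f-1 had 0.71 ± 0.31 (limma adjusted p = 0.183).

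**Figure D3:**
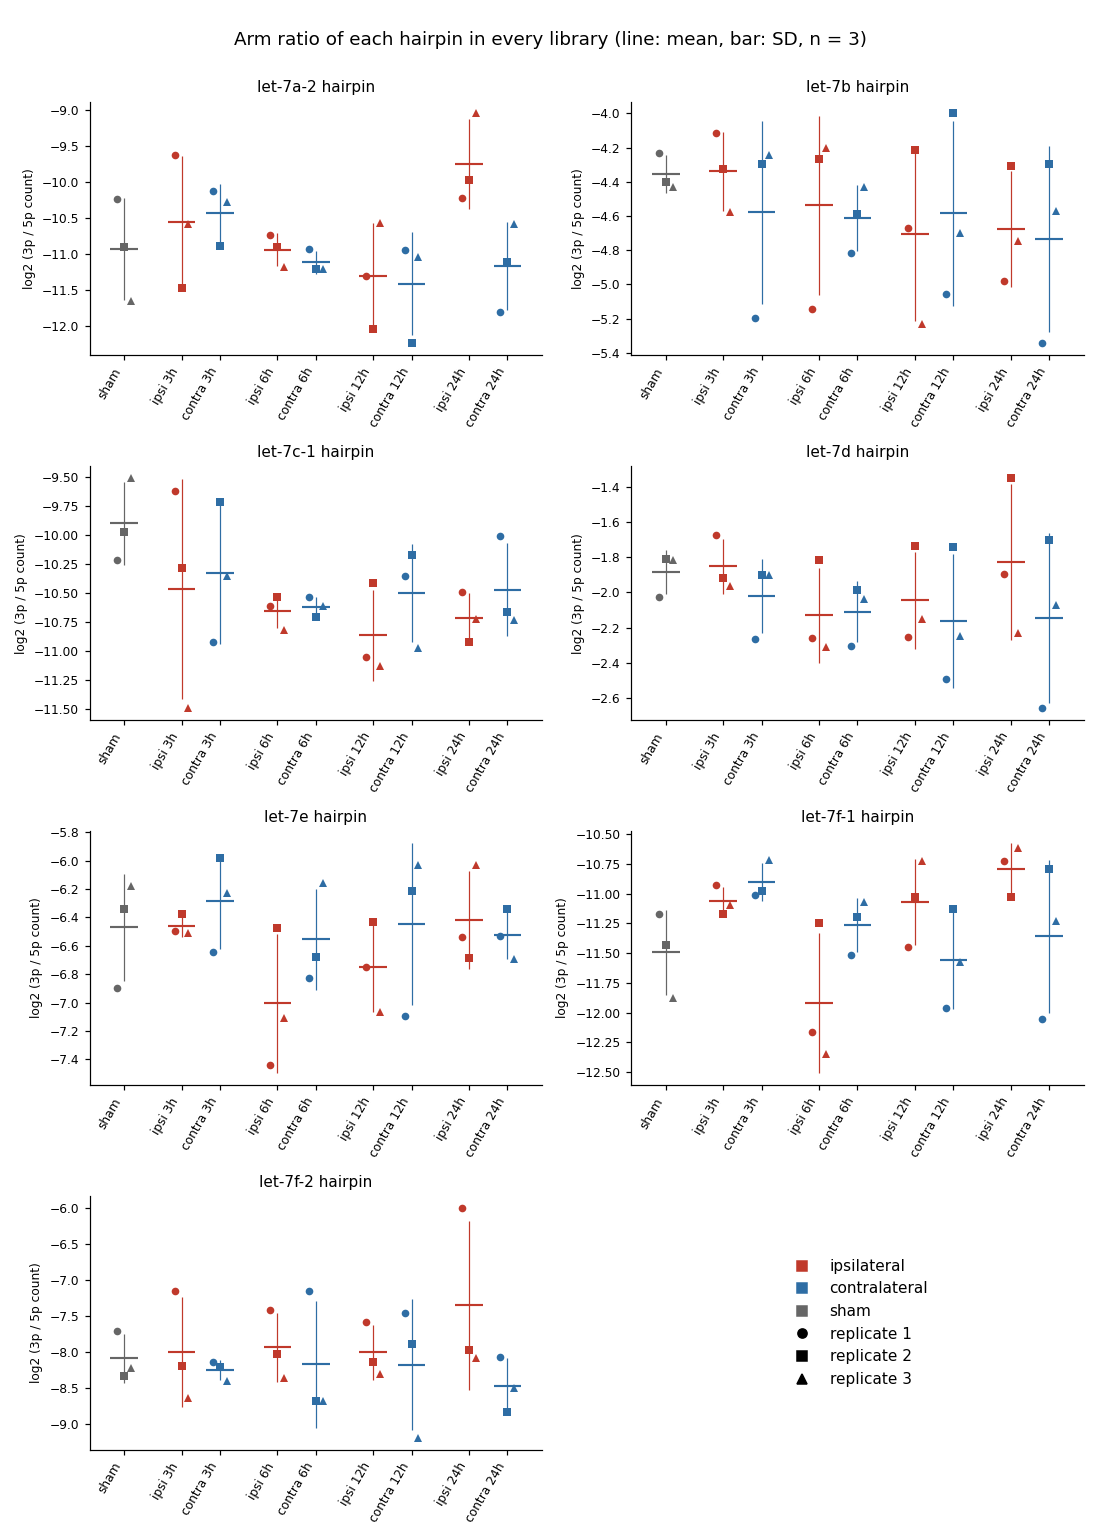
Log2 ratio of the passenger strand to its guide for each hairpin in every library, by group. Symbols are replicates 1 to 3, horizontal lines are means and vertical bars are SDs (n = 3), and the axes do not start at 0. The let-7a-2 ratio lies between -10.23 and -9.05 in the ipsilateral libraries at 24 h, above all contralateral libraries of that time.

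let-7f-2-3p differed between days of surgery, by a test that was added after its values were seen. In each of the 9 groups the highest of the 3 libraries was replicate 1, and in 8 the lowest was replicate 3. Over the 9 libraries of each number it had 193, 324 and 556 CPM (lowest, median and highest) in replicate 1, 132, 225 and 304 CPM in replicate 2, and 117, 151 and 216 CPM in replicate 3. The log2 difference was -0.75 for replicate 2 over replicate 1 and -1.26 for replicate 3 over replicate 1 (edgeR adjusted p = 4.64e-06). The ratio to let-7f-5p differed too, by -0.85 and -1.08 (limma adjusted p = 0.000104), while let-7f-5p itself did not pass with TMM (edgeR adjusted p = 0.172) and passed with library totals (0.00245, with -0.33 and -0.37).

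Differences between days were common in these libraries, so let-7f-2-3p was among many entries. edgeR called 25.0% of all entries for the replicate number and 3 of the 7 members, and limma called 19.9% of arm ratios and 3 of the 7 members, let-7b (adjusted p = 0.0428), let-7d (0.0130) and let-7f-2. With TMM let-7b-3p was highest in replicate 2 in 8 of 9 groups, with 121, 169 and 241 CPM (lowest, median and highest). It had 67.6, 113 and 155 CPM in replicate 1 and 89.1, 146 and 202 CPM in replicate 3. Its log2 difference of replicate 2 over replicate 1 was 0.65 (edgeR adjusted p = 0.00468). From library totals let-7b-3p was not highest in replicate 2 in sham cortex, contralateral cortex at 3 and 6 h, or ipsilateral cortex at 3, 6 and 12 h. With TMM let-7d-3p was highest in replicate 2 in 7 of 9 groups, with a log2 difference of 0.27 over replicate 1 (edgeR adjusted p = 0.0371). The call of let-7f-2-3p held under every scaling tried, with edgeR adjusted p from 1.94e-07 to 1.62e-05, and those of let-7b-3p and let-7d-3p did not. With TMM from abundant entries (a mean of at least 100 CPM) let-7b-3p (edgeR adjusted p = 0.148) and let-7d-3p (0.0924) were lost. With library totals let-7b-3p was lost (0.315), let-7a-2-3p was called (0.0299), and let-7d-3p was called in the other direction, with -0.17 for replicate 2 over replicate 1 (0.0407). The median of all entries for replicate 2 over replicate 1 was -0.61 with library totals, -0.51 with TMM from abundant entries and -0.20 with TMM, and let-7d-3p lay above it each time. let-7d-3p was also lost with DESeq2 size factors (0.0522) and with no filter (0.114). Without the ipsilateral libraries at 12 and 24 h the edgeR adjusted p was 2.30e-05 for let-7f-2-3p, 0.00685 for let-7b-3p and 0.427 for let-7d-3p.

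Of related entries, edgeR called 0 of the 9 guides, 1 of 3 other 3p arms of the family, 6 of 13 arms from the same clusters and 18 of the 32 other passenger arms for the replicate number. With library totals it called 8 guides and 14 other passenger arms, and with TMM from abundant entries 7 and 12. The 3p arm called was let-7i-3p, with 0.67 for replicate 2 over replicate 1 (edgeR adjusted p = 0.00853), which was lost with library totals (0.391) and with TMM from abundant entries (0.201). miR-98-5p and miR-98-3p, which share the Huwe1 intron with let-7f-2-3p, were not among them (edgeR adjusted p = 0.187 and 0.495). The 6 cluster partners that were called were lower in replicate 1 than in replicate 2 under every scaling tried, opposite to let-7f-2-3p, as in miR-99a-5p, which was highest in replicate 2 in 8 of 9 groups with a log2 difference of 1.27 over replicate 1 (edgeR adjusted p = 1.57e-07). Summed marker levels also varied between the numbers, without a test of the sums. The 5 neuron-enriched microRNAs ran from 69522 to 113530 CPM in replicate 1, from 105866 to 204710 CPM in replicate 2 and from 84430 to 158581 CPM in replicate 3, ranges that overlap. The 2 oligodendrocyte microRNAs ran from 887 to 1787 CPM in replicate 1, from 1788 to 3265 CPM in replicate 2 and from 1360 to 2203 CPM in replicate 3, with no overlap between replicates 1 and 2. The 9 choroid plexus and epithelial microRNAs had medians of 4833, 3790 and 3213 CPM in replicates 1, 2 and 3, the 3 vascular ones 15274, 18580 and 17854 CPM, and the 5 leukocyte and microglia ones 1081, 1361 and 1239 CPM. The 3 muscle microRNAs had medians of 116, 167 and 164 CPM in that order, and the 3 erythrocyte ones 186, 220 and 205 CPM. Their part in these differences was not tested, and the labels do not say what else changed between the days.

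**Figure D4:**
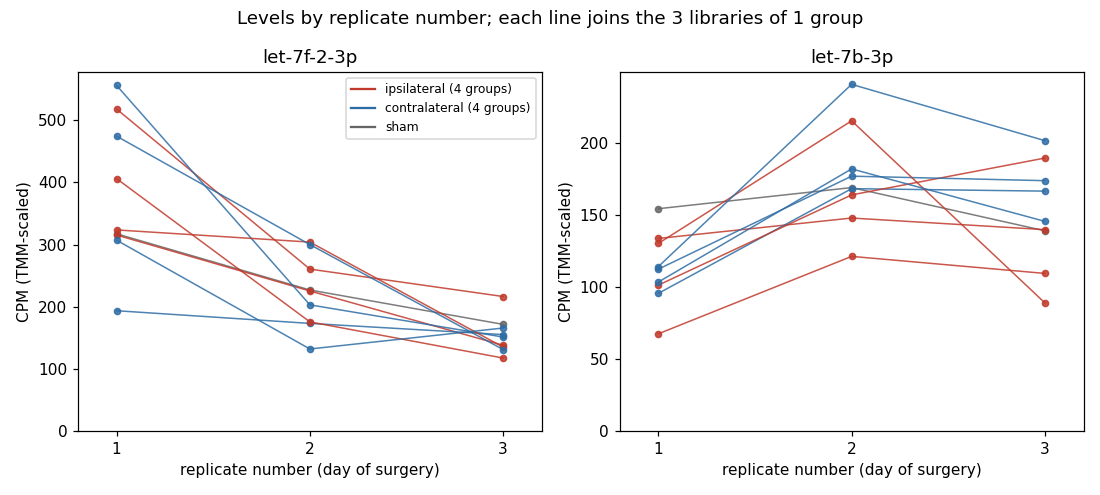
Levels of let-7f-2-3p (left) and let-7b-3p (right) by replicate number, which stands for the day of surgery, in TMM-scaled CPM on axes from 0. Each line joins the 3 libraries of 1 group. let-7f-2-3p is highest in replicate 1 in all 9 groups, and let-7b-3p is highest in replicate 2 in 8.

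The microRNAs whose levels were most like those of each strand were found by Pearson correlation of log2(CPM + 1) over the 27 libraries, among 983 entries outside the family with a mean of at least 10 CPM. These are descriptions, since the libraries share days of surgery, scaling and the 24 h samples. let-7d-3p was most like miR-222-3p (0.91), miR-328-3p (0.89) and miR-485-3p (0.89). let-7e-3p was most like miR-328-3p (0.90), miR-92b-3p (0.84) and miR-30c-5p (0.84). let-7b-3p was most like miR-361-3p (0.82), miR-30d-5p (0.81) and miR-30c-5p (0.81).

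let-7f-2-3p followed another set, miR-489-5p (0.82), miR-3535 (0.80) and miR-21b (0.79). The rarer strands had looser partners: miR-7224-3p (0.75), miR-1981-3p (0.71) and miR-151-3p (0.71) for let-7f-1-3p, miR-30d-3p (0.58), miR-34b-3p (0.57) and miR-582-3p (0.57) for let-7c-1-3p, and miR-6363 (0.59), miR-880-3p (0.58) and miR-7222-3p (0.57) for let-7a-2-3p. These partners were picked as the highest of 983 entries, so a lower value with the guide, a single fixed entry, was likely beforehand. With their own guides the correlations were 0.67 for let-7d-3p, 0.54 for let-7e-3p and 0.48 for let-7b-3p. They were 0.34 for both let-7f strands, 0.32 for let-7c-1-3p and -0.30 for let-7a-2-3p. Among the members, let-7d-3p ran with let-7e-3p (0.80) and let-7b-3p (0.77), which are made from other transcripts, more closely than with let-7f-1-3p (0.56) from its own. let-7f-1-3p had 13 to 64 counts, against at least 44 for let-7e-3p and 99 for let-7b-3p. How far counting error lowered its correlation was not tested.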

How the data were processed

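The deposited file is 1 table of raw read counts per mature microRNA in 27 libraries, all of which were used. Per the labels' protocols, TruSeq small RNA libraries (inserts of 15 to 35 bp) were sequenced as 69 bp single reads on a MiSeq. The submitters' processing notes name Novoalign and edgeR. Genome build, annotation release and the handling of reads that match several entries: not given in the sources used here. Totals ran from 856591 to 1903416 counts. Intervals cover counting error only and no spread between libraries. PCR reads carry no molecular identifiers, so duplicate reads cannot be told apart and the intervals may be too narrow.

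Counts were tested with edgeR 4.0.16 in R 4.3.3 (quasi-likelihood F test, TMM factors from 0.676 to 1.51, filterByExpr, 1 mean per group over all 27 libraries, 18 residual degrees of freedom), with Benjamini-Hochberg adjustment over 1470 entries and calls at an adjusted p under 0.05. Arm ratios, log2((3p + 0.5)/(5p + 0.5)), were tested with limma 3.58.1 over 537 hairpins. DESeq2 1.42.0 was an alternative. Both tests were tested on simulated data.

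The replicate number marks the day of surgery, per the series' design text, and so pairs libraries. Libraries of different groups deviated from their group means together where they shared a number (mean correlation 0.297, 108 pairs). The value where they did not (-0.147, 216 pairs) largely follows from the first, since deviations from a group mean cancel within the group. With the number as a block the common dispersion was 0.0817, against 0.123 without it. Between replicates the chi-square of the counts was at least 11.9 times its degrees of freedom, so no libraries were merged.

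The members and lists were chosen with earlier results of these data known. Named besides the 7 members are their guides, the family's other 3p arms, cluster partners, the 3 entries most like each member in level, and the extremes of the list of other passenger arms. Sequences come from RefSeq (GRCm38.p6) and gene features from GENCODE for GRCm38.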

Additional observations from a re-analysis of the deposited data

How the results depend on the processing

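Members called lower in ipsilateral cortex at 24 h against sham numbered 1, 0 with total counts, with TMM from abundant entries or with no filter, 2 with the replicate block, and 0 to 1 when 1 library was left out. Against contralateral cortex they numbered 0, and 1 (let-7d-3p) with the replicate block or DESeq2. Arm ratios called higher against contralateral cortex at 24 h numbered 1, 0 with only the 6 libraries, with no filter or with the edgeR offset, 2 with the replicate block (let-7a-2 and let-7f-2), and 0 to 1 when 1 library was left out. Members called for the replicate number numbered 3, and 1 (let-7f-2-3p) with TMM from abundant entries. The block changed no other call of a member. Signs turned for let-7f-1-3p with total counts (0.028 against contralateral cortex, 0.083 against sham) and for let-7f-2-3p against sham (0.38 with total counts, 0.32 with TMM from abundant entries). With 1 library left out, let-7f-2-3p ran from -0.70 to 0.29 against sham and from -0.46 to 0.64 against contralateral cortex. The arm ratios ran from -0.18 to 0.26 for let-7d and from -0.16 to 0.20 for let-7e against sham, and from -0.25 to 0.28 for let-7b and from -0.090 to 0.24 for let-7e against contralateral cortex. The cause of these changes was not tested. Low counts limit let-7a-2-3p and let-7c-1-3p most.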
